A study of Mus musculus with 4 samples.

Results

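The ligands described here are 7 members of the tumor necrosis factor (TNF) superfamily, picked by gene symbol from the 84 target genes of an inflammation PCR array. They were read in 3 classes. The death ligands were *Tnf*, *Fasl* and *Tnfsf10* (TRAIL), the T cell help ligands were *Cd40lg* (CD40 ligand) and *Tnfsf4* (OX40 ligand), and the B cell survival ligands were *Tnfsf13* (APRIL) and *Tnfsf13b* (BAFF). RNA came from ischemic thigh adductor and calf gastrocnemius muscle of FVB mice, taken 21 days after ischemia was induced. One group had received E-sel/AAV2/2, an adeno-associated virus that carries the gene for the adhesion molecule E-selectin, and the control group LacZ/AAV2/2, the same virus with a bacterial reporter gene. Mice of both groups underwent surgical interruption of the femoral artery and vein and received the nitric oxide synthase inhibitor L-NAME at 40 mg/kg. Virus was injected into the muscle before the surgery, the study used young adult mice of both sexes, the sex of the pooled mice is not in the labels, and no uninjured or virus-free muscle was on these arrays.

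Each group was 1 pool of RNA from 3 mice, and each pool was read on 2 arrays. Replicates are therefore repeat measurements, and every SD, interval and p-value below covers assay error and not the spread between mice. Whether both arrays of a pool were run from the same cDNA is not given in the sources used here, so that error may or may not include reverse transcription. The arrays carried genes of cytokines, chemokines and their receptors only, so the muscle identity of the RNA could not be checked against muscle genes. In whole muscle, fewer cells of a type and less RNA per cell cannot be told apart.

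Ligands of the TNF superfamily are trimeric proteins, most of them anchored in the membrane, that signal by clustering receptors on a neighboring cell. Fas ligand and TRAIL engage receptors with a death domain and can trigger apoptosis of the target cell, and TNF can do so as well, besides driving inflammation. CD40 ligand is shown mainly by activated helper T cells and licenses B cells and antigen-presenting cells through CD40, whereas OX40 ligand sits on antigen-presenting cells and endothelium and prolongs the response of T cells that carry OX40. APRIL and BAFF share the receptors TACI and BCMA on B lineage cells, and BAFF alone also binds the BAFF receptor, which mature B cells need to survive.

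Each well was read as a threshold cycle (Ct), that is, when in the PCR its fluorescence crossed a preset line. More transcript gives a lower Ct, and a difference of 1 cycle is 1 unit on the log2 scale at full PCR efficiency. All 7 ligands gave a Ct on all 4 arrays, and 77 of the 84 target genes did so. Of the 28 ligand wells, 13 (46.4%) had a Ct of 35 or later, where few template molecules are left and readings scatter, compared with 26.2% of all target wells with a Ct. *Fasl*, *Cd40lg* and *Tnfsf4* were that late in 4 of 4 wells, *Tnf* in 1 of 4, and *Tnfsf10*, *Tnfsf13* and *Tnfsf13b* in 0 of 4. The well for contaminating genomic DNA read, in replicate order, 37.33 and 36.13 with E-sel/AAV2/2 vs. 36.86 and 39.33 with LacZ/AAV2/2. Of the ligand wells, 4 came later than the genomic DNA well of their own array. These were *Tnfsf4* on E-sel/AAV2/2 replicate 1 and *Fasl*, *Cd40lg* and *Tnfsf4* on LacZ/AAV2/2 replicate 1. LacZ/AAV2/2 replicate 1 also ran late as a whole, with target genes a median of 2.19 cycles behind replicate 2 of that pool. The reverse transcription control wells had a mean Ct of 23.55 and 23.15 with E-sel/AAV2/2 vs. 23.11 and 24.72 with LacZ/AAV2/2. The positive PCR control wells lay between 21.00 and 21.19 on all 4 arrays. The cause of the later reverse transcription control on LacZ/AAV2/2 replicate 2 was not tested.

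**Figure D1:**
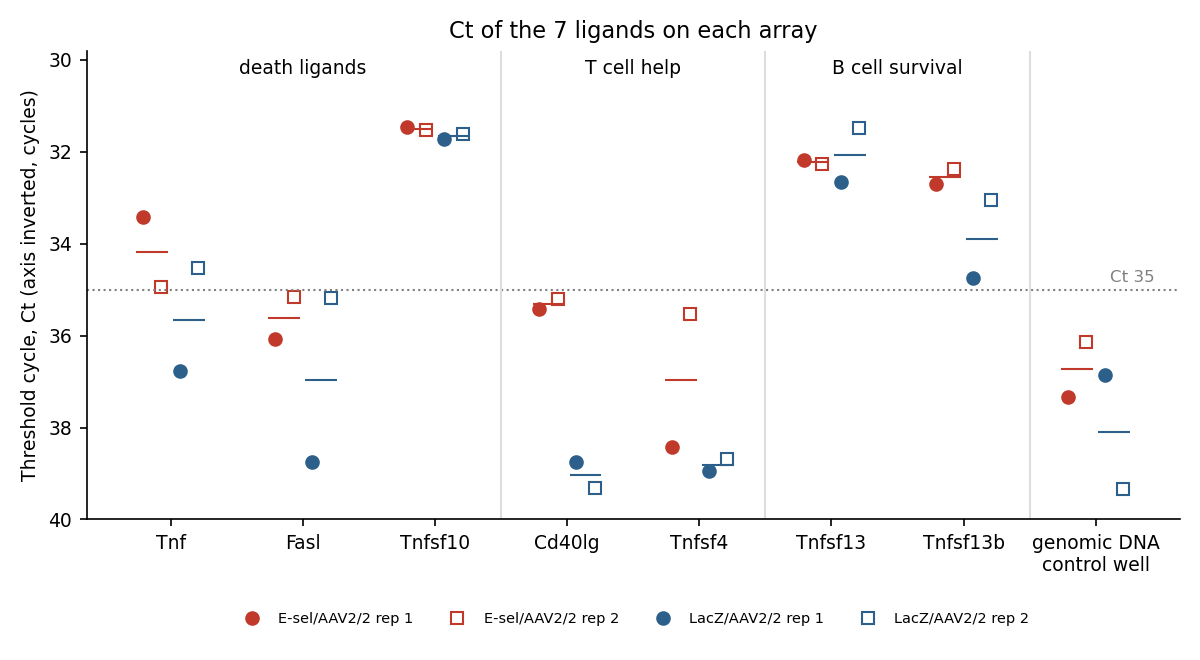
Threshold cycle of each ligand on each array, with the axis inverted so that more transcript is higher. Red marks E-sel/AAV2/2 and blue LacZ/AAV2/2, filled circles are replicate 1, open squares replicate 2 and short lines the mean of the 2 arrays; the last column is the genomic DNA control well. *Cd40lg* is the ligand whose groups lie farthest apart, at 35.41 and 35.21 against 38.74 and 39.32, and all of its wells are past Ct 35.

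*Cd40lg* was the ligand with the largest difference between the pools, an estimated 9.01-fold higher with E-sel/AAV2/2 (95% CI 2.01 to 40.4 from limma), but it did not pass the adjusted threshold. The estimate ran from 4.82- to 16.8-fold when 1 array was left out, and the LacZ/AAV2/2 wells it was set against were not clearly earlier than the genomic DNA control. Levels were expressed as ΔCt, the distance in cycles from the array's mean over the reference genes *Gapdh*, *Gusb*, *Hsp90ab1*, *Actb* and *B2m*, and changes as log2 fold changes of E-sel/AAV2/2 over LacZ/AAV2/2. By limma, with an adjusted p-value under 0.05 as the threshold, 0 of the 7 ligands were called, compared with 4 of the 77 tested genes (5.19%). At an unadjusted p-value under 0.05, *Cd40lg* alone among the ligands was higher, where 7 of 77 genes (9.09%) were. After normalization the level was higher on each E-sel/AAV2/2 array than on any LacZ/AAV2/2 array for *Cd40lg* and *Tnfsf13b*, 2 of 7 ligands against 22.1% of tested genes. It was lower on each for *Tnfsf13*, 1 of 7 against 26.0%. For the other 4 ligands the arrays of the groups overlapped.

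The estimate was above 0 for 5 of the 7 ligands, compared with 46.8% of tested genes, and the median was 0.81 for the ligands and -0.19 for all 77 genes. This count rested on the reference genes and on the late wells. The reference genes did not move together: the log2 difference of *B2m* over *Gapdh* was 2.56 larger with E-sel/AAV2/2 than with LacZ/AAV2/2. With *Gapdh* as the only reference 7 of 7 ligands were above 0, and with *B2m* as the only reference 1 of 7 was, *Cd40lg*. A change of reference shifts every gene by the same amount, and the medians of all 77 genes were then 0.92 and -1.64. With Ct above 35 set to 35, 2 of 7 ligands were above 0, and the median was -0.55 for the ligands and for all genes. *Fasl*, *Cd40lg* and *Tnfsf4* then read 35 in every well. Their estimates were thus fixed at -0.55, the shift of the reference genes alone. With only genes under Ct 35 on all arrays, 1 of the 3 ligands left was above 0. The class medians with all 5 reference genes were 0.81 for the death ligands, 2.23 for the T cell help ligands and 0.05 for the B cell survival ligands. No test was run on these medians.

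**Figure D2:**
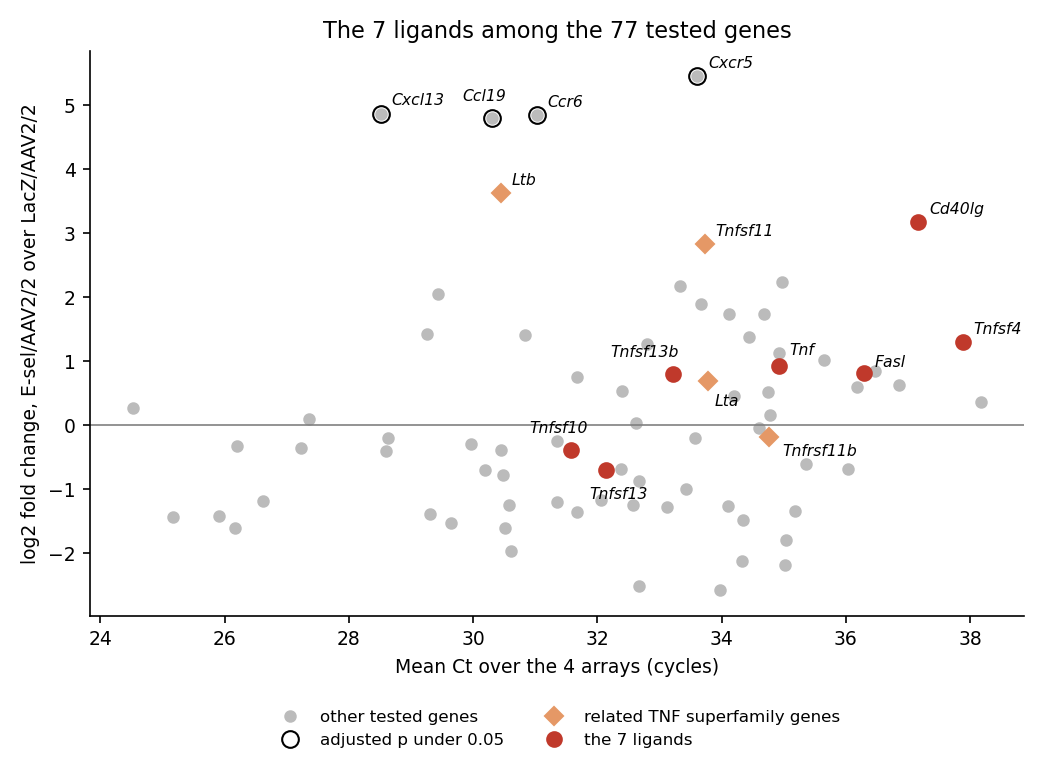
Log2 fold change of E-sel/AAV2/2 over LacZ/AAV2/2 against mean Ct for each of the 77 tested genes, with the 7 ligands in red, 4 related TNF superfamily genes as orange diamonds and the 4 genes with an adjusted p-value under 0.05 ringed. *Cd40lg*, at 3.17, is the highest of the ligands and among the latest genes of the panel, whereas *Tnfsf10* and *Tnfsf13* sit just under 0 at earlier Ct.

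Among the death ligands, *Tnf*, the inflammatory cytokine that gives the family its name, had a Ct of 33.41 and 34.95 with E-sel/AAV2/2 and of 36.78 and 34.53 with LacZ/AAV2/2. The earliest and the latest reading both came from replicate 1, and replicate 2 of E-sel/AAV2/2 was later than replicate 2 of LacZ/AAV2/2. Its ΔCt was 10.1 ± 1.44 vs. 11.0 ± 0.725 (SD, n = 2 arrays each). The log2 fold change was 0.93 (95% CI -1.31 to 3.16, limma adjusted p = 0.681), and it was -0.091 without E-sel/AAV2/2 replicate 1.

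*Fasl*, the ligand that cytotoxic T cells and natural killer cells use to kill through Fas, was late on every array. Its Ct was 36.07 and 35.16 with E-sel/AAV2/2 and 38.76 and 35.19 with LacZ/AAV2/2. The readings of replicate 2 differed by 0.03 cycles between the pools, and the LacZ/AAV2/2 reading of replicate 1 was the only one past 37. With a ΔCt of 11.5 ± 0.293 vs. 12.3 ± 1.66 (SD, n = 2 each), the log2 fold change was 0.81 (95% CI -1.44 to 3.07, limma adjusted p = 0.716). Without LacZ/AAV2/2 replicate 1 it was -0.36.

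*Tnfsf10*, whose product TRAIL binds death receptors on many cell types, was the most abundant of the 7 by Ct and the steadiest. Its Ct was 31.46 and 31.53 with E-sel/AAV2/2 and 31.71 and 31.61 with LacZ/AAV2/2, a range of 0.25 cycles over the 4 arrays. It thus showed 0.10 cycles of the 2.19-cycle lag that LacZ/AAV2/2 replicate 1 had over the panel. Normalization carried the lag of the reference genes, 1.22 cycles between the LacZ/AAV2/2 arrays, into its ΔCt of 7.41 ± 0.400 vs. 7.02 ± 0.795 (SD, n = 2 each). The log2 fold change was -0.38 (95% CI -2.48 to 1.71, limma adjusted p = 0.847), and it was 0.18 without LacZ/AAV2/2 replicate 1 and 0.73 with *Gapdh* as the only reference. On the fold scale that interval runs from 0.180 to 3.27, so changes within it were not resolved by these arrays.

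Of the T cell help ligands, *Cd40lg* read 35.41 and 35.21 with E-sel/AAV2/2 and 38.74 and 39.32 with LacZ/AAV2/2. The groups were 3.33 cycles apart at their nearest, before any normalization. The late run of LacZ/AAV2/2 replicate 1 was not seen in this gene, which read earlier there than on replicate 2. Its ΔCt was 11.2 ± 0.209 vs. 14.4 ± 1.28 (SD, n = 2 each) and its log2 fold change 3.17 (95% CI 1.01 to 5.34, limma adjusted p = 0.0940). It ranked 6 of 77 by log2 fold change. Replicate 1 against replicate 1 gave 2.42 and replicate 2 against replicate 2 gave 3.93.

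The call for *Cd40lg* depended on the normalization and on 1 array. It passed the threshold in 5 of 17 other limma fits: without *B2m* among the reference genes, with *Gapdh* alone, with *Actb*, *Gusb* and *Hsp90ab1*, with the median target gene, and without LacZ/AAV2/2 replicate 1 (log2 fold change 4.07, limma adjusted p = 0.0288). The log2 fold change was 1.73 with *B2m* alone (limma adjusted p = 0.321) and 2.27 without LacZ/AAV2/2 replicate 2 (limma adjusted p = 0.324). With Ct above 35 set to 35, all 4 wells read the same and no difference in this gene was left to measure. Both LacZ/AAV2/2 wells of *Cd40lg* came within 0.01 cycles of the genomic DNA well or later than it, whereas both E-sel/AAV2/2 wells came earlier, at 35.41 against 37.33 and 35.21 against 36.13. The part of genomic DNA in these readings was not tested.

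*Tnfsf4*, the other T cell help ligand, overlapped between the pools after normalization. Its Ct was 38.42 and 35.52 with E-sel/AAV2/2 and 38.94 and 38.68 with LacZ/AAV2/2. Only E-sel/AAV2/2 replicate 2 stood apart, and the other 3 wells were within 0.52 cycles of each other. Its ΔCt of 12.9 ± 1.70 vs. 14.2 ± 0.682 (SD, n = 2 each) gave a log2 fold change of 1.29 (95% CI -1.003 to 3.59, limma adjusted p = 0.507). The difference between arrays numbered 1 was -0.39 and that between arrays numbered 2 was 2.98.

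The B cell survival ligands were read before Ct 35 on every array. *Tnfsf13b*, the gene for BAFF, had a Ct of 32.71 and 32.38 with E-sel/AAV2/2 and 34.75 and 33.04 with LacZ/AAV2/2. Both E-sel/AAV2/2 wells were earlier than both LacZ/AAV2/2 wells, before and after normalization. Its ΔCt was 8.46 ± 0.117 vs. 9.26 ± 0.344 (SD, n = 2 each), a difference of 0.80 (95% CI -1.24 to 2.84, limma adjusted p = 0.689), which turned to -0.64 with *B2m* alone.

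*Tnfsf13*, the gene for APRIL, read 32.17 and 32.27 with E-sel/AAV2/2 and 32.66 and 31.49 with LacZ/AAV2/2. The LacZ/AAV2/2 wells lay on either side of the E-sel/AAV2/2 wells in Ct, but after normalization both were higher in level. Its ΔCt was 8.13 ± 0.421 vs. 7.44 ± 0.0382 (SD, n = 2 each), with a log2 fold change of -0.69 (95% CI -2.74 to 1.35, limma adjusted p = 0.716) that turned to 0.42 with *Gapdh* alone. In the mouse annotation (GRCm38.p6) *Tnfsf13* overlaps *Tnfsfm13*, a readthrough gene that joins it to the neighboring *Tnfsf12*, so the assay may also detect that transcript.

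**Figure D3:**
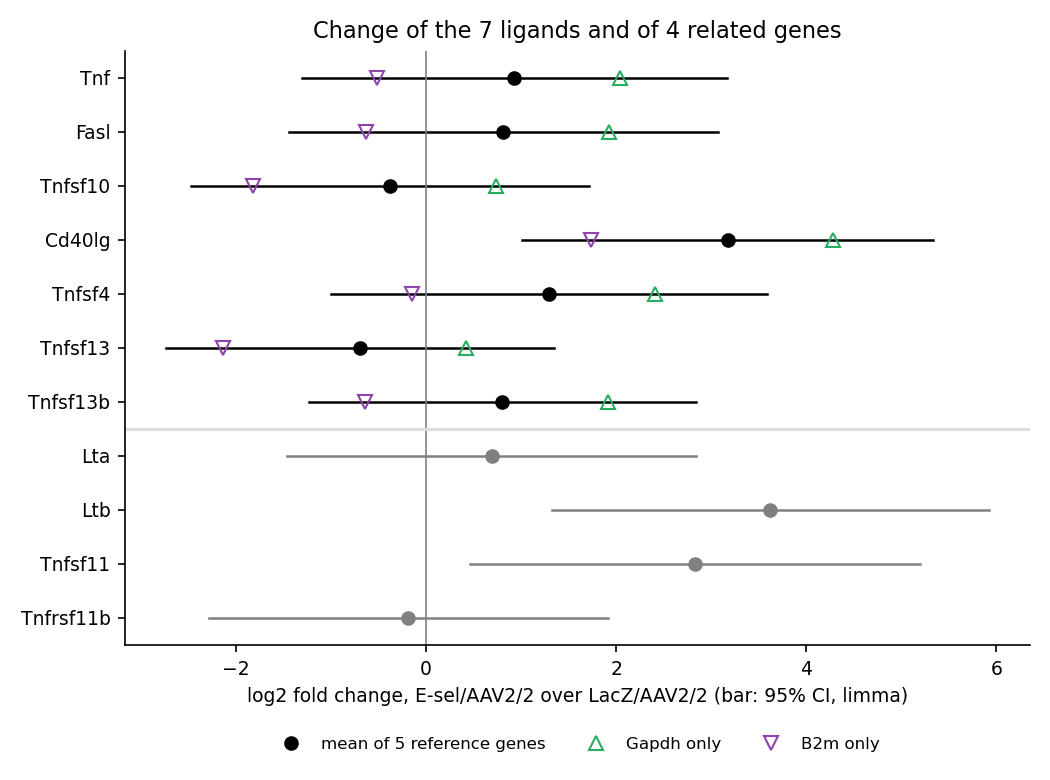
Log2 fold change of E-sel/AAV2/2 over LacZ/AAV2/2 for the 7 ligands (black) and 4 related genes (grey), with 95% confidence intervals from limma that cover assay error; open triangles give the ligands with *Gapdh* or *B2m* as the only reference. The interval of *Cd40lg*, 1.01 to 5.34, is the only one of the 7 that does not reach 0, and each of the other 6 ligands changes sign between the single references.

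The order of the ligands by level was alike in the pools at its top and not at its foot. By mean ΔCt, where a smaller value is a higher level, the E-sel/AAV2/2 pool ran *Tnfsf10* (7.41), *Tnfsf13* (8.13), *Tnfsf13b* (8.46), *Tnf* (10.1), *Cd40lg* (11.2), *Fasl* (11.5) and *Tnfsf4* (12.9). In the LacZ/AAV2/2 pool the first 4 kept those places, at 7.02, 7.44, 9.26 and 11.0, followed by *Fasl* (12.3), *Tnfsf4* (14.2) and *Cd40lg* (14.4). By these means *Cd40lg* stood between *Tnf* and *Fasl* with E-sel/AAV2/2 and last with LacZ/AAV2/2. Its last place came from LacZ/AAV2/2 replicate 2, at 15.296. On replicate 1 its ΔCt of 13.492 was just under those of *Fasl* (13.512) and *Tnfsf4* (13.692). In the E-sel/AAV2/2 pool the arrays of *Tnfsf13* and *Tnfsf13b* overlapped, as did those of *Tnf*, *Cd40lg*, *Fasl* and *Tnfsf4*, each with its neighbor in the order. In the LacZ/AAV2/2 pool *Tnfsf10* overlapped *Tnfsf13*, *Tnf* overlapped *Fasl*, and *Cd40lg* overlapped *Tnfsf4* and *Fasl*. Primer efficiency differs between assays and was not measured here, so small steps in this order are not firm.

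Differences between ligands on the same array do not involve the reference genes, and the classes were set against each other in this way. The mean -Ct of the death ligands exceeded that of the T cell help ligands by 3.27 and 1.49 with E-sel/AAV2/2 and by 3.09 and 5.22 with LacZ/AAV2/2. The groups overlapped, and the mean distance was 1.78 smaller with E-sel/AAV2/2, against a pooled SD of 1.39. Leaving out 1 array gave -0.71 (without LacZ/AAV2/2 replicate 2), -0.89 (without E-sel/AAV2/2 replicate 2), -2.67 (without E-sel/AAV2/2 replicate 1) or -2.85 (without LacZ/AAV2/2 replicate 1), and the distance was -0.84 without *Cd40lg* and 0.25 with Ct above 35 set to 35. Against the B cell survival ligands the death ligands were lower on every array, at -1.21 and -1.56 with E-sel/AAV2/2 and -2.05 and -1.51 with LacZ/AAV2/2. These values overlapped as well and differed by 0.40, against a pooled SD of 0.319. That difference was 0.22 without E-sel/AAV2/2 replicate 1, 0.13 without LacZ/AAV2/2 replicate 1 and 0.66 without LacZ/AAV2/2 replicate 2. The T cell help ligands were below the B cell survival ligands, at -4.48 and -3.04 with E-sel/AAV2/2 and -5.14 and -6.74 with LacZ/AAV2/2. The groups did not overlap and differed by 2.18 (pooled SD 1.07). Among all pairs of single tested genes, 54.2% did not overlap either. The difference was 1.38 without LacZ/AAV2/2 replicate 2, 1.24 without *Cd40lg* and -0.60 with Ct above 35 set to 35. With that ceiling every T cell help well read 35. The values 0.25 and -0.60 therefore come from the other class alone and do not measure the T cell help ligands. For a single distance, the smallest two-sided p-value that exact permutation of these 4 arrays can give is 0.333, so the distances are given without a test.

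Members of a class were set against each other in the same way. *Tnfsf13* exceeded *Tnfsf13b* by 0.54 and 0.11 with E-sel/AAV2/2 and by 2.09 and 1.55 with LacZ/AAV2/2. The balance of the 2 B cell survival ligands was thus 1.50 log2 units nearer to *Tnfsf13b* with E-sel/AAV2/2 (pooled SD 0.345), with a gap of 1.01 between the groups. The widest shift of any ligand pair by its gap was *Tnfsf10* over *Cd40lg*, 3.95 and 3.68 with E-sel/AAV2/2 and 7.03 and 7.71 with LacZ/AAV2/2. Within the death ligands, *Tnf* over *Fasl* was 2.66 and 0.21 vs. 1.98 and 0.66, which overlapped. Of the 21 ligand pairs 9 did not overlap between the groups, 4 of the 6 pairs with *Cd40lg* and 5 of the 15 without it. Among all 2926 pairs of tested genes 54.2% did not overlap, so the ligands did not stand out by this count, and the pairs named here were chosen after their values were seen.

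**Figure D4:**
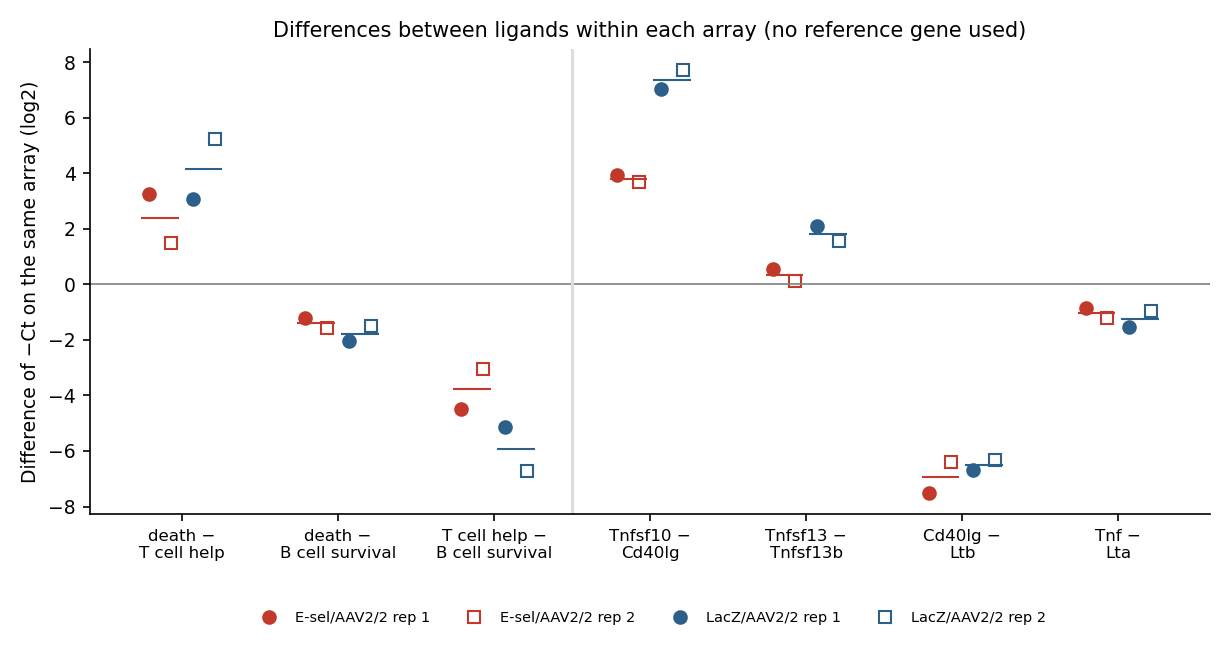
Difference of -Ct between classes of ligands (left) and between single genes (right) on each array, in log2 units; symbols and lines as in the plot of Ct by array. *Tnfsf10* over *Cd40lg* and *Tnfsf13* over *Tnfsf13b* are smaller on both E-sel/AAV2/2 arrays than on both LacZ/AAV2/2 arrays, whereas *Tnf* over *Lta* stays between -1.54 and -0.84 on all 4.

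The panel held 4 further TNF superfamily genes, none of which passed the adjusted threshold with all 5 reference genes and all 4 arrays. *Ltb*, a membrane lymphotoxin that helps to organize lymphoid tissue, read 27.89 and 28.83 vs. 32.06 and 33.00. Its log2 fold change was 3.62 (95% CI 1.33 to 5.92, limma adjusted p = 0.0704). It passed the threshold in 11 of 18 other limma fits, among them the fits without *Actb*, *B2m*, *Gusb* or *Hsp90ab1*, with Ct above 35 set to 35 and without LacZ/AAV2/2 replicate 1, with log2 fold changes of 2.18 to 4.74 and adjusted p-values of 6.2e-04 to 0.601 over the 18. *Tnfsf11*, the gene for the osteoclast factor RANKL, had a log2 fold change of 2.83 (95% CI 0.46 to 5.19, limma adjusted p = 0.239) and passed in 2 of 17, with *Gapdh* alone and without LacZ/AAV2/2 replicate 1. *Lta*, the soluble lymphotoxin, was at 0.69, and the decoy receptor *Tnfrsf11b*, which binds RANKL and also TRAIL, at -0.19 (limma adjusted p = 0.716 and 0.899). Over the 10 ligands of the family on the panel, 8 estimates were above 0 and 0 were called, where 46.8% and 5.19% of all tested genes were. The number above 0 was 3 with *B2m* alone, 5 with Ct above 35 set to 35 and 10 with *Gapdh* alone. With the ceiling at 35, *Fasl*, *Cd40lg* and *Tnfsf4* were below 0 by the reference genes alone. With *Gapdh* alone 3 of the 10 were called (*Cd40lg*, *Ltb* and *Tnfsf11*), where 7 of the 77 tested genes were. Without *B2m* among the reference genes 2 were called (*Cd40lg* and *Ltb*), where 6 of 77 were.

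*Ltb*, *Tnf* and *Lta* lie side by side on mouse chromosome 17 with no other protein-coding gene between them. *Tnf* and its neighbor *Lta* differed on the arrays by -0.84 and -1.20 with E-sel/AAV2/2 and -1.54 and -0.97 with LacZ/AAV2/2. The distance of *Ltb* from *Tnf* was 5.52 and 6.12 vs. 4.72 and 1.53, without overlap, as for 54.2% of all pairs of tested genes. *Cd40lg* and *Ltb*, on different chromosomes, were -7.52 and -6.38 vs. -6.68 and -6.32 apart, and these values overlapped. *Fasl* and *Tnfsf4* share mouse chromosome 1 with only *Tnfsf18* between them among protein-coding genes, and *Fasl* over *Tnfsf4* ranged from 0.18 to 3.49.

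The target gene with the most similar profile over the 4 arrays was sought for each ligand, as the smallest root mean square difference between gene-centered levels. For *Cd40lg* it was *Tnfsf11* at 0.43 log2 units. Each such value is the smallest of 70 distances and is low by construction. *Tnfsf10* was nearest to *Vegfa* (0.12), *Tnf* to *Il16* (0.23), *Fasl* to *Il13* (0.26), *Tnfsf13* to *Il33* (0.26), *Tnfsf13b* to *Csf3* (0.22) and *Tnfsf4* to *Il5ra* (0.70). The points are 4 arrays of 2 pools, so a likeness also holds what an array does to late genes.

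Genes listed under the cell types that make or receive these ligands were read on the same arrays. The 4 genes called on the whole panel (5.19% of those tested) were all higher with E-sel/AAV2/2. They were the chemokine *Cxcl13* that draws B cells into follicles, its receptor *Cxcr5*, *Ccr6* and *Ccl19*, with log2 fold changes from 4.80 to 5.45. The highest was that of *Cxcr5*, whose LacZ/AAV2/2 replicate 1 well read 38.23, later than the genomic DNA well of that array at 36.86. The 4 called genes also make up the list named B cell and follicle genes. It was drawn up with these calls known, so neither the count of calls in that list nor its mean level is evidence of its own. Whether these genes were read from B cells or follicles was not tested. The mean level (-ΔCt) of the 4 genes was -4.07 and -3.95 with E-sel/AAV2/2 and -9.79 and -8.21 with LacZ/AAV2/2. Of the T cell and natural killer cell genes *Ifng*, *Il2rb*, *Il2rg*, *Cxcr3*, *Ccr4* and *Il21*, 5 of 6 could be tested and 0 were called, with estimates from 0.75 to 2.23. These genes are part of a list that is not reported in full, so no median or summed level is given for it. *Il21*, a cytokine of helper T cells, had a Ct on 1 array only, 39.86 on E-sel/AAV2/2 replicate 1. Of 6 myeloid and platelet genes (*Ccr1*, *Ccr2*, *Il1b*, *Il1rn*, *Osm* and *Pf4*) 0 were called, with a median of -0.54 and a mean level of -7.81 and -8.38 vs. -7.74 and -7.58. The part of such cells in the values of *Cd40lg*, *Tnfsf13b* and the other ligands was not tested.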

How the data were processed

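Ct values from 4 Qiagen RT2 Profiler arrays (SYBR Green RT-qPCR) were used as the authors deposited them, not normalized; baseline and threshold settings are not given in the sources used here. A second deposited table gave gene symbols by well, and its fold ratios, the authors' own comparison of E-selectin with LacZ arrays, were not used. The labels name an angiogenesis array, but the catalog number and the symbols are those of the inflammation array. Groups came from sample titles.

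ΔCt was taken to the mean of 5 reference genes as in the study's methods, and -ΔCt was tested with limma 3.58.1 in R 4.3.3 (lmFit, eBayes, two-sided, no covariate) with Benjamini-Hochberg adjustment over the 77 target genes with a Ct on all 4 arrays. The fit was tested on simulated data that held no late-running array and no diverging reference genes. That test therefore does not cover these features of the arrays. The ligands, their classes and the gene lists were chosen with earlier results of these data known. Named genes were the 7 ligands, 4 related genes, the reference genes, the nearest profile per ligand and the lists. 1 gene of the T cell and natural killer cell list is not reported here. The labels share replicate numbers between groups but state no batch. Symbols and neighbors came from RefSeq GRCm38.p6. Figures used matplotlib 3.10.9 in Python 3.11.15. The alternatives covered the reference genes, late and missing Ct, each array, the replicate block, the variance model and the averaging; *Actb*, *Gusb* and *Hsp90ab1* as reference, and missing Ct set to 40 for the count over all genes, were added after seeing the data, as were the alternatives for the distance of T cell help from B cell survival ligands.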

Additional observations from a re-analysis of the deposited data

How the results depend on the processing

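Over all target genes 4 were called, compared with 7 with *Gapdh* alone, 0 with *B2m* alone (26 at an unadjusted p-value under 0.05) and 0 to 6 in the limma fits without 1 array; it was 0 without either E-sel/AAV2/2 array (8 and 7 at an unadjusted p-value under 0.05). Of the 7 ligands 0 were called, and 1, *Cd40lg*, without *B2m*, with *Gapdh* alone, with *Actb*, *Gusb* and *Hsp90ab1*, with the median target gene, and in 1 of the fits without an array (range 0 to 1). Of the 77 tested genes 6 were called without *B2m*, with *Actb*, *Gusb* and *Hsp90ab1*, and with the median target gene. With the replicate block the ligand count was 0 and that over all genes 5. The 2 pairs are too few to show that the numbers pair the arrays (r = 0.332 between replicate deviations across genes).

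Log2 fold changes turned sign as follows. With *B2m* alone they were -0.52 for *Tnf*, -0.63 for *Fasl*, -0.15 for *Tnfsf4* and -0.64 for *Tnfsf13b*, and with *Gapdh* alone 0.73 for *Tnfsf10* and 0.42 for *Tnfsf13*. With Ct above 35 set to 35 they were -0.55 for *Fasl*, *Cd40lg* and *Tnfsf4*, whose wells then all read 35, so that only the reference genes were left. Without 1 array at a time the range was -0.091 to 1.945 for *Tnf*, below 0 without E-sel/AAV2/2 replicate 1, -0.361 to 1.985 for *Fasl*, below 0 without LacZ/AAV2/2 replicate 1, and -0.945 to 0.179 for *Tnfsf10*, above 0 without LacZ/AAV2/2 replicate 1.

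The distance of death from T cell help ligands (-1.78) read 0.25 with that ceiling, and that of T cell help from B cell survival ligands (2.18) read -0.60. Every T cell help well was then 35, so neither value measures those ligands. The distance of death from B cell survival ligands (0.40) turned to -0.35 with the ceiling and without *Tnfsf13*, and was 0.87 with class medians, 0.82 without *Tnfsf10* 1.15 without *Tnfsf13b*, 0.22 without *Fasl* and 0.16 without *Tnf*; the cause was not tested. Without 1 array at a time the 3 distances ranged from -2.85 to -0.71, from 0.13 to 0.66 and from 1.38 to 2.98, in the order death against T cell help, death against B cell survival, T cell help against B cell survival. With a filter for Ct under 35 on all arrays, 3 ligands were left to test. Groups of 2 arrays are too small to look for outlying arrays.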
